A study of Bos taurus with 6 samples.

Results

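The miR-424/miR-450 miRNAs described here come from 1 cluster of hairpins on the X chromosome. The members were chosen by name from the count table of the study. Of 6 named members, 3 had a row in this table and are described here, bta-miR-424-3p, bta-miR-450a and bta-miR-450b, among 359 known miRNAs and 706 rows in all. The other 3, bta-miR-424-5p, bta-miR-503-5p and bta-miR-542-5p, were not analysed here, so the ratio of the 2 arms of miR-424 was not computed. Having a row in the table, which requires counts, is what chose the 3 members, so their detection is a description. The study had also picked bta-miR-450b out from these same samples for its difference between the groups, and its difference is therefore given below without a test.

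The samples were extracellular vesicles (EVs), membrane-enclosed particles released by cells, prepared from the serum of 6 female Holstein cows in mid lactation (101 ± 10 days in milk). In the control group 3 cows ate a total mixed ration (TMR). In the tested group 3 cows ate a ration in which whole cotton seed and soybean hull stood in for part of the alfalfa hay and corn silage. Both groups were fed for 30 days, and each cow gave 1 small RNA library. The question was whether the diets changed the miRNAs carried by serum EVs.

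A miRNA is cut from a hairpin precursor, and either arm of the hairpin (5p or 3p) can give a mature strand. Its seed, bases 2 to 8 from the 5′ end, pairs with target mRNAs. The miR-424/503 hairpins are known from studies of the cell cycle, muscle differentiation and blood vessels, and the 5p arm of miR-424 belongs to the miR-15/16 seed family. The miR-450 hairpins lie beside them and are thought to be made from the same primary transcript. In the RefSeq gene table for assembly ARS-UCD2.0, which is a later assembly than the one the reads were matched to, the order along the chromosome was MIR450B, MIR450A-1, MIR450A-2, MIR542, MIR3601, MIR503 and MIR424, with HPRT1 and PLAC1 as the nearest protein-coding genes on the 2 sides. Since bta-miR-450a has 2 hairpin genes, its counts cannot be assigned to one of them.

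The mature sequences as listed in the deposited table are shown because the 2 miR-450 miRNAs look alike and yet had different levels across the cows. Capitals mark the seed.
bta-miR-424-3p: cAAAACGTgaggcgctgctat
bta-miR-450a: tTTTGCGAtgtgttcctaatat
bta-miR-450b: tTTTGCAAtatgttcctgaata
Counted from 1 at the 5′ end, with the base of bta-miR-450a first, bta-miR-450a and bta-miR-450b share 15 of their first 17 bases and differ there by G7A, which lies in the seed, and G10A. Over their whole length they are 4 edits apart. The seed of each member was unlike that of every other row, as 0 of the other rows of the table had the same bases 2 to 8. No other row lay within 2 edits of any member. The members were 21 nt (bta-miR-424-3p) and 22 nt long, where the median of the known miRNAs was 22 nt. The G and C content was 52.4% in bta-miR-424-3p, 31.8% in bta-miR-450a and 27.3% in bta-miR-450b, beside a median of 45.8% over the known miRNAs.

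All 3 members were rare. Levels are given as raw counts and as CPM, the raw count over the total of known miRNA counts of the library, scaled to 1000000, which rest on 1226928 to 2088249 known miRNA counts per library. Together the 3 members had 257 counts in the 6 libraries, 23.9 CPM. By mean level bta-miR-450a was at rank 186 of the 359 known miRNAs with 9.86 CPM ± 17.0 (SD, n = 6), bta-miR-450b at rank 194 with 7.97 CPM ± 11.1 (SD, n = 6) and bta-miR-424-3p at rank 217 with 5.45 CPM ± 4.65 (SD, n = 6). These differences are smaller than the spread between cows, and the order was another by median, with 4.35 CPM for bta-miR-424-3p, 3.20 CPM for bta-miR-450a and 1.98 CPM for bta-miR-450b. At least 1 count was found in 6 of 6 libraries for bta-miR-450a and in 5 of 6 for bta-miR-424-3p and bta-miR-450b. With a minimum of 10 counts the number of libraries was 3 for bta-miR-424-3p, 2 for bta-miR-450b and 1 for bta-miR-450a.

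**Figure D1:**
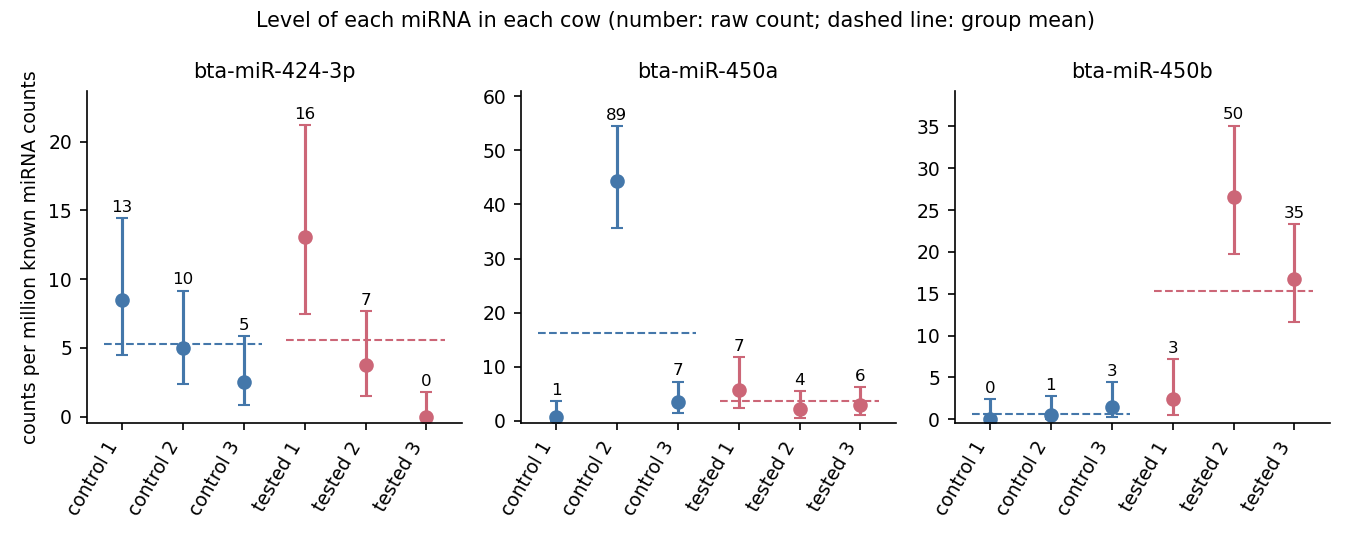
Level of bta-miR-424-3p, bta-miR-450a and bta-miR-450b (CPM of known miRNA counts, linear axes with a different range per panel) in each control and tested cow. Bars are 95% exact Poisson intervals of the count, which is printed above each point, and dashed lines are group means; 1 control cow stands high for bta-miR-450a with 89 counts, and 2 tested cows stand high for bta-miR-450b with 50 and 35 counts.

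For bta-miR-424-3p, the strand from the 3′ arm of the hairpin, the counts were 13, 10 and 5 in control cows 1, 2 and 3 and 16, 7 and 0 in tested cows 1, 2 and 3. In CPM these were 8.46, 4.98 and 2.51 in the control group and 13.04, 3.72 and 0 in the tested group. The highest and the lowest level were both in tested cows, so the control cows lay inside the range of the tested cows. In tested cow 3 it had 0 of 2088249 known miRNA counts, which allows a level of up to 1.44 CPM if a count of 0 is taken to allow up to 3 counts, or 1.77 CPM by the exact Poisson interval. The control mean was 5.32 CPM ± 2.99 (SD, n = 3) and the tested mean 5.59 CPM ± 6.72 (SD, n = 3), a difference smaller than either SD. A two-sided exact permutation test of the means gave p = 1.0. With 3 cows against 3 this test cannot go below 0.1. Limits and intervals drawn from counts describe sampling of reads only, because PCR copies are not independent molecules.

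For bta-miR-450a, the counts were 1, 89 and 7 in control cows 1, 2 and 3 and 7, 4 and 6 in tested cows 1, 2 and 3. In CPM these were 0.651, 44.3 and 3.52 in the control group and 5.71, 2.13 and 2.87 in the tested group. Control cow 2 stood alone, with 78.1% of the 114 counts, and its 95% exact Poisson interval of 35.6 to 54.5 CPM lay above that of every other cow. The other 2 control cows had the lowest level and one in the middle of the tested cows. The control mean was 16.2 CPM ± 24.4 (SD, n = 3) and the tested mean 3.57 CPM ± 1.89 (SD, n = 3). This difference was larger than the tested SD and smaller than the control SD, which rested on control cow 2. A two-sided exact permutation test of the means gave p = 0.8. Without control cow 2 the direction turned, with a ratio of tested to control means of 1.71 in place of 0.221.

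For bta-miR-450b, the counts were 0, 1 and 3 in control cows 1, 2 and 3 and 3, 50 and 35 in tested cows 1, 2 and 3. In CPM these were 0, 0.498 and 1.51 in the control group and 2.45, 26.6 and 16.8 in the tested group. Tested cows 2 and 3 were high, and tested cow 1 was near the control cows. In CPM the 2 groups did not overlap, with the tested cows on the upper side. This holds for 1 of the 3 members and, in TMM-scaled CPM, for 8.03% of all 623 miRNAs tested. The separation of tested cow 1 from control cow 3 came from library size alone, as both had 3 counts, with intervals of 0.504 to 7.15 CPM and 0.311 to 4.40 CPM. In control cow 1 it had 0 of 1537256 known miRNA counts, which allows a level of up to 1.95 CPM at 3 counts, or 2.40 CPM by the exact Poisson interval. The means were 0.668 CPM ± 0.768 (SD, n = 3) and 15.3 CPM ± 12.1 (SD, n = 3), given as a description because this difference is what the miRNA was picked for.

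The cow with most bta-miR-450a was not a cow with much bta-miR-450b. Of the counts on both, bta-miR-450b made up 0 of 1 in control cow 1, 1 of 90 in control cow 2 and 3 of 10 in control cow 3. In the tested group it made up 3 of 10 in tested cow 1, 50 of 54 in tested cow 2 and 35 of 41 in tested cow 3. These shares are 1.11% in control cow 2 (95% exact binomial interval 0.0281% to 6.04%), 92.6% in tested cow 2 (82.1% to 97.9%) and 85.4% in tested cow 3 (70.8% to 94.4%). The share was 30.0% in both control cow 3 and tested cow 1 (6.67% to 65.2%), so the leading miRNA was bta-miR-450a in 4 cows and bta-miR-450b in 2. Summed over a group, the counts on both were nearly equal, 101 in the control cows and 105 in the tested cows, or 18.2 CPM and 20.2 CPM. This rested on control cow 2, since the other 2 control cows together had 11 counts. The levels of all 3 members together were 9.11, 49.8 and 7.54 CPM in control cows 1, 2 and 3 and 21.2, 32.5 and 19.6 CPM in tested cows 1, 2 and 3. The highest of these sums was in a control cow, and the groups overlapped.

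**Figure D2:**
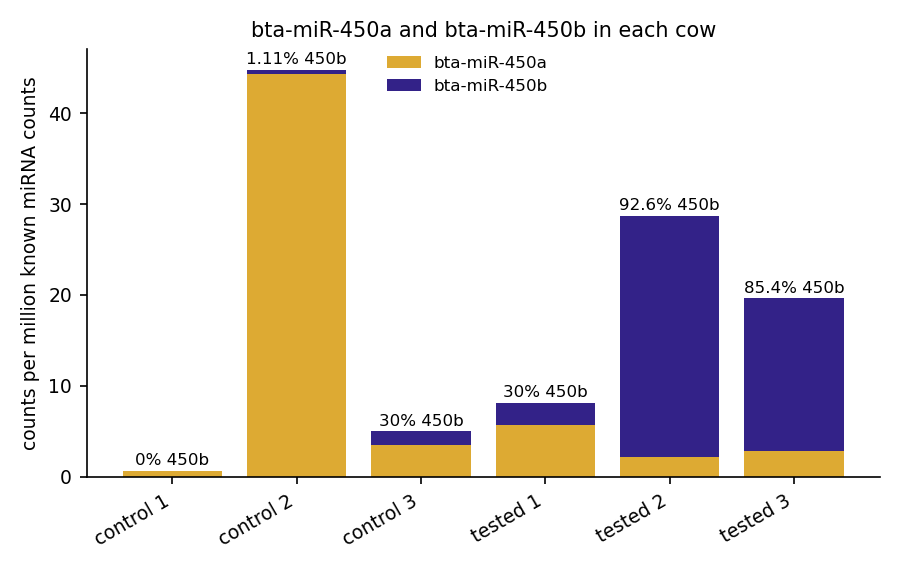
Stacked levels of bta-miR-450a and bta-miR-450b (CPM of known miRNA counts, bars from 0) in each cow, with the share of bta-miR-450b in the counts of both above each bar. Control cow 2 held almost only bta-miR-450a (1.11% bta-miR-450b), and tested cows 2 and 3 held mostly bta-miR-450b (92.6% and 85.4%).

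Although the 3 members are encoded in 1 cluster, with 3 other miRNA genes between MIR424 and the miR-450 hairpins, their levels did not move together over the 6 cows. The Pearson correlation of log2(CPM + 1) was 0.09 between bta-miR-424-3p and bta-miR-450a, -0.57 between bta-miR-424-3p and bta-miR-450b and -0.26 between bta-miR-450a and bta-miR-450b, with Spearman values of 0.14, -0.43 and -0.09. These are descriptions over 6 libraries with 0 to 89 counts per value. The 3 members were highest in 3 different cows, tested cow 1 for bta-miR-424-3p, control cow 2 for bta-miR-450a and tested cow 2 for bta-miR-450b. The cow with the highest level held 39.4% of the summed TMM-scaled level of bta-miR-424-3p, 74.8% of that of bta-miR-450a and 58.6% of that of bta-miR-450b. The median of this measure was 46.1% over the 623 miRNAs tested and 76.0% over the 152 known miRNAs tested with fewer than 200 counts.

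In the comparison of the groups over the whole table, 0 of the 2 members tested, bta-miR-424-3p and bta-miR-450a, passed a threshold on both p (unadjusted, below 0.05) and log2 fold change (above 1 in size), where 3.21% of all 623 miRNAs tested did. The tool was edgeR, whose quasi-likelihood test works on raw counts with TMM scaling between libraries, and all 3 members passed its filter of at least 10 counts over the 6 libraries. By p alone edgeR, DESeq2 and limma each gave 0 of the 2 below 0.05, where 4.65%, 4.82% and 3.69% of all 623 miRNAs were below it. A positive log2 fold change means a higher level in the tested group. For bta-miR-424-3p edgeR gave 0.07 on the log2 scale, with a standard error of 2.36 and an adjusted p of 0.994. For bta-miR-450a edgeR gave -2.21 on the log2 scale, with a standard error of 2.10 and an adjusted p of 0.733. For bta-miR-450b the value was 4.27 with a standard error of 2.43, as a description. At a Benjamini-Hochberg adjusted p below 0.05, 0.161% of the 623 miRNAs passed (1 miRNA). With standard errors of this size, changes of several fold in bta-miR-424-3p or bta-miR-450a could have gone undetected. Over all 623 miRNAs the median log2 fold change was 0.07.

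**Figure D3:**
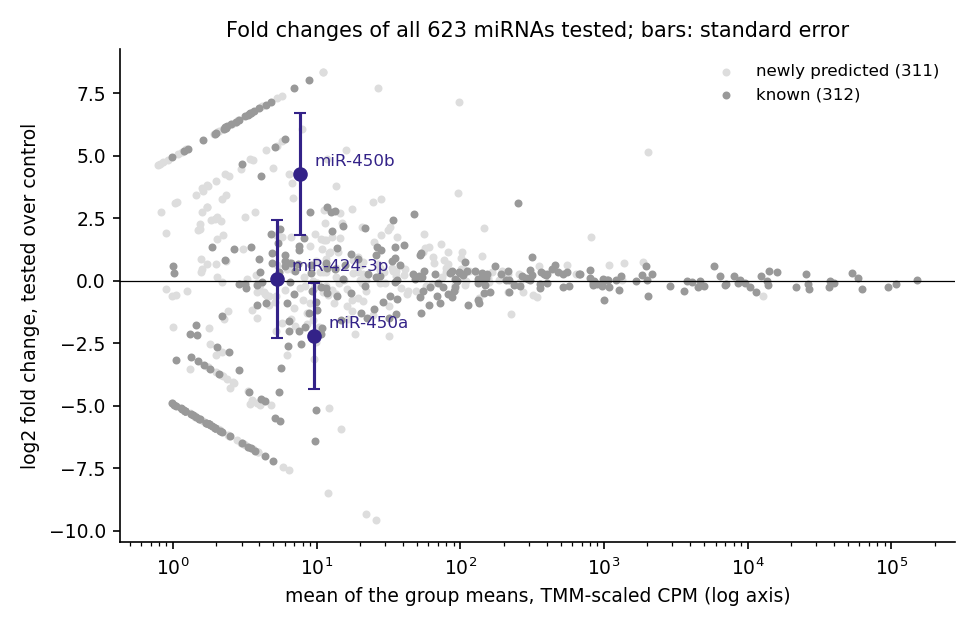
Log2 fold change of tested over control for all 623 miRNAs tested with edgeR, against the mean of the 2 group means in TMM-scaled CPM (log axis), known and newly predicted miRNAs in different greys. The 3 members, marked with their standard errors, lie at the rare end of the plot, where fold changes spread widest, at 0.07, -2.21 and 4.27.

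Leaving out single cows showed how much each fold change rests on 1 library. With each cow left out in turn, the log2 fold change of bta-miR-450a ran from -2.79 to 0.62, and control cow 2 was the only cow whose removal turned it positive. That of bta-miR-424-3p ran from -1.42 without tested cow 1 to 0.66 without tested cow 3, and was also negative without control cow 3, at -0.25. That of bta-miR-450b ran from 3.49 without tested cow 2 to 5.55 without control cow 3. Its sign says nothing of stability, since it was picked for this difference and its groups do not overlap in CPM.

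**Figure D4:**
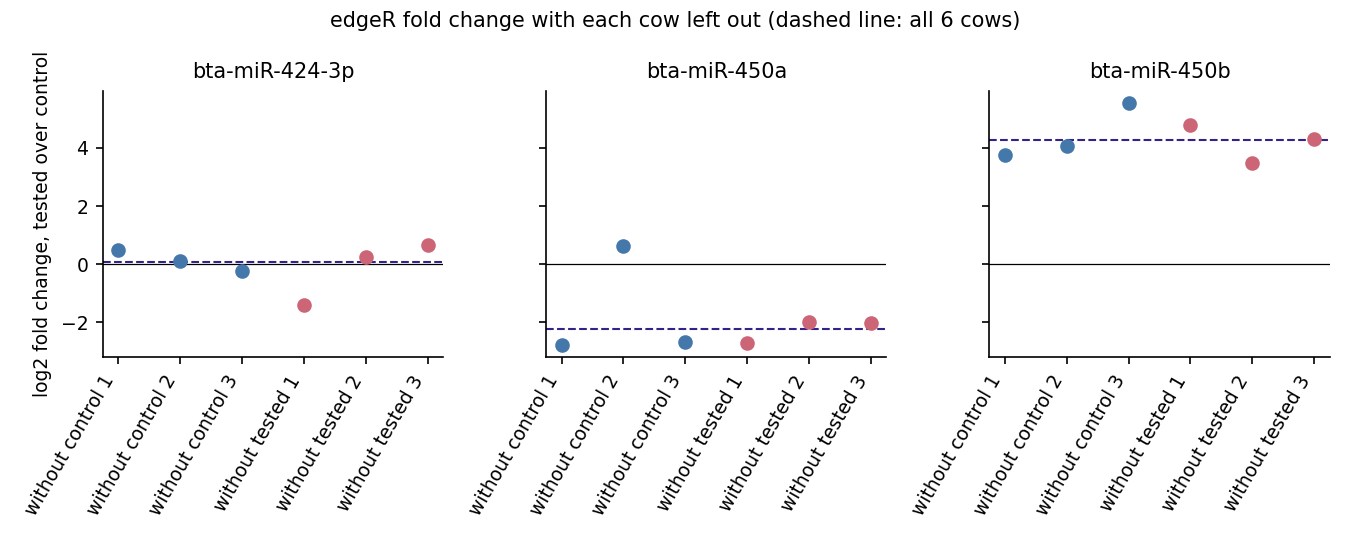
Log2 fold change of tested over control from edgeR for each member with 1 cow left out at a time (points, coloured by the group of the cow left out), beside the value from all 6 cows (dashed line). The value of bta-miR-450a moves from -2.21 to 0.62 without control cow 2, and that of bta-miR-450b, whose sign was fixed by how it was picked, lies between 3.49 and 5.55.

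Among 184 other known miRNAs with a mean of at least 10 CPM, the levels most like those of bta-miR-424-3p over the 6 cows were those of bta-miR-362-5p (Pearson correlation of log2(CPM + 1) 0.98), bta-miR-144 (0.98) and bta-miR-652 (0.94). The order of the 6 cows was the same for bta-miR-424-3p and bta-miR-144, a miRNA of red blood cell formation. For bta-miR-144 the levels were 246.5, 114.0 and 72.3 CPM in control cows 1, 2 and 3 and 532.2, 100.03 and 23.5 CPM in tested cows 1, 2 and 3. The 3 red blood cell miRNAs (bta-miR-451, bta-miR-144 and bta-miR-486) together ranged from 13468 to 28434 CPM in the control cows and from 8621 to 59608 CPM in the tested cows. Their sum was highest in tested cow 1 and lowest in tested cow 3, as bta-miR-424-3p was, with a Pearson correlation of 0.86 on the log2 scale over the 6 cows. The 3 white blood cell miRNAs with a row (bta-miR-150, bta-miR-155 and bta-miR-142-5p) ranged in sum from 194.4 to 364.3 CPM in the control cows and from 78.1 to 427.9 CPM in the tested cows, with a Pearson correlation of 0.98 with bta-miR-424-3p. For the other lists this correlation was 0.75 (liver), 0.11 (vessel wall and platelet), -0.02 (seed relatives), -0.29 (epithelium) and -0.55 (muscle). The white blood cell miRNAs peaked in different cows. In TMM-scaled CPM, bta-miR-150 was highest in tested cow 1 (311.5), bta-miR-142-5p in control cow 1 (89.1) and bta-miR-155 in control cow 3 (125.8). In tested cow 1, the cow with most bta-miR-424-3p, bta-miR-155 was at 35.0. All 6 blood cell miRNAs were found in every cow, and their part in the level of bta-miR-424-3p was not tested. In serum, fewer EVs from a cell type and fewer miRNA copies per EV cannot be told apart.

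**Figure D5:**
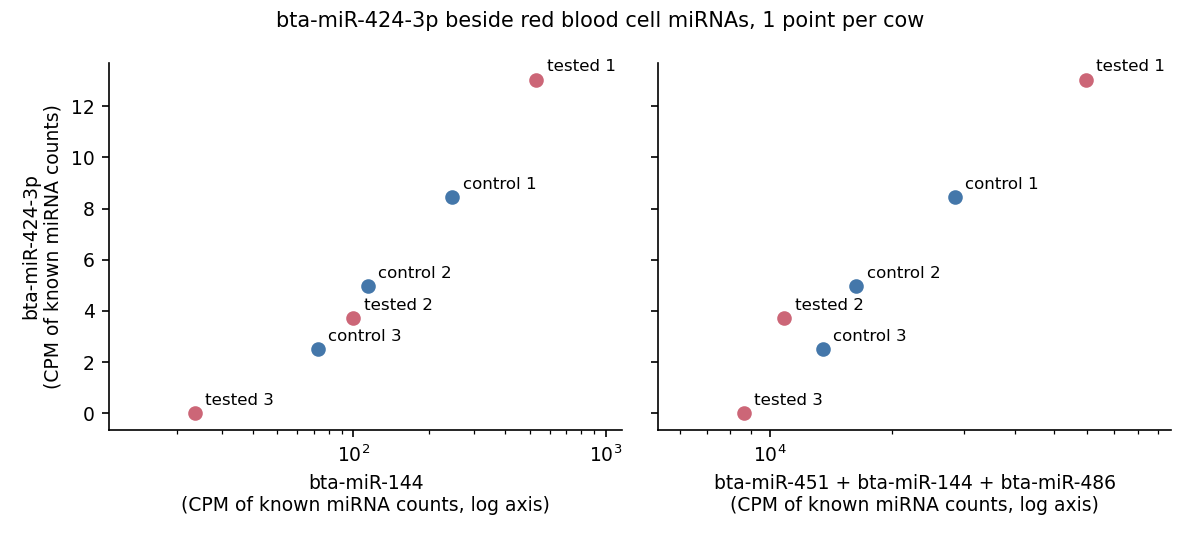
Level of bta-miR-424-3p (vertical axis, CPM of known miRNA counts) against that of bta-miR-144 and against the sum of the 3 red blood cell miRNAs (horizontal log axes, CPM of known miRNA counts), 1 point per cow. Tested cow 1 is highest and tested cow 3 lowest on every axis, and the control cows lie between them.

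The levels most like those of bta-miR-450a were those of bta-miR-29b (Pearson correlation 0.80), bta-miR-2284x (0.76) and bta-miR-200c (0.74), with Spearman values of 0.60, 0.60 and 0.77. All 3 were highest in control cow 2, as bta-miR-450a was, but with a smaller ratio of highest to lowest level. The levels ran from 86.5 to 226.5 CPM for bta-miR-29b, 91.4 to 198.6 CPM for bta-miR-2284x and 38204 to 44240 CPM for bta-miR-200c, against 0.651 to 44.3 CPM for bta-miR-450a. For bta-miR-450b they were bta-miR-29a (0.84), bta-miR-26a (0.81) and bta-miR-345-5p (0.80). The level of bta-miR-29a was 967.9 and 835.1 CPM in tested cows 2 and 3, the cows with most bta-miR-450b, and 534.7 to 695.4 CPM in the other 4. These correlations are the highest of 184 over 6 libraries and are given as descriptions only.

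The seed relatives of the 5p arm of miR-424, which repress cyclins and other genes of cell division, were in part more abundant than the cluster members, 3 of 5 by their counts. Of the 6 in the list, 5 had a row, and all 5 carry the seed AGCAGCA. Their counts over the 6 libraries were 1042 for bta-miR-16a, 656 for bta-miR-16b, 416 for bta-miR-15b, 33 for bta-miR-195 and 3 for bta-miR-15a. Of the 4 that were tested, 0 passed the threshold in either direction by edgeR, DESeq2 or limma, and 0 had an unadjusted p below 0.05. Over all 623 miRNAs tested, 3.21% passed by edgeR, 4.17% by DESeq2 and 2.41% by limma. By p alone the shares were 4.65%, 4.82% and 3.69%. The 4 had a median log2 fold change of -0.26 beside 0.07 over all miRNAs tested. For bta-miR-15b the counts were 111, 101 and 72 in control cows 1, 2 and 3 and 7, 24 and 101 in tested cows 1, 2 and 3, and edgeR gave -1.34 on the log2 scale with a standard error of 1.11 and an adjusted p of 0.681. For bta-miR-195, 29 of the 33 counts were in tested cow 1, the cow with most bta-miR-424-3p, and edgeR gave 4.203 on the log2 scale with a standard error of 2.89 and an adjusted p of 0.587.

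As for the other cells that could have released the EVs, 1 miRNA of the marker lists passed the threshold by edgeR, bta-miR-199a-3p of the 11 vessel wall and platelet miRNAs, which was higher in the tested group. Over all 623 miRNAs tested the share was 3.21% by edgeR, and by DESeq2, which passed 2 of that list (also bta-miR-126-5p), it was 4.17%. Limma passed 0 of the list and 2.41% of all 623. With known miRNAs only, edgeR passed bta-miR-126-5p as well (log2 fold change 2.48). The study had picked bta-miR-199a-3p and bta-miR-126-5p out from these same samples for their difference between the groups. Their calls are therefore descriptions and add no independent support. For bta-miR-199a-3p the adjusted p from edgeR was 0.448, and the log2 fold change was 2.66. The call was lost by limma (log2 fold change 2.21) and with the replicate block (2.40), and when tested cow 1, control cow 3 or control cow 1 was left out (1.46, 2.32 and 2.52). That list ranged in sum from 305.5 to 886.6 CPM in the control cows and from 766.7 to 940.6 CPM in the tested cows. For muscle, where miR-424 and miR-503 are known to act, 5 of 7 miRNAs had a row and 0 of 3 tested passed, with sums of 133.4 to 158.3 CPM and 151.6 to 177.7 CPM in the control and tested cows, mostly from bta-miR-499. None of the 3 red blood cell, 3 white blood cell, 3 liver or 7 epithelium miRNAs tested passed by any of the 3 tools, and of these only bta-miR-141 of epithelium had an unadjusted p below 0.05 by edgeR with all 6 cows and the filter of at least 10 counts. With filterByExpr, a stricter filter of edgeR, bta-miR-375 of epithelium was below 0.05 as well. For bta-miR-141 this was lost with RLE in place of TMM scaling and by DESeq2. The red blood cell values turned on single cows. Without tested cow 1 the log2 fold changes of bta-miR-451 and bta-miR-486 were -1.08 and -1.01 in place of 0.58 and 0.35, and both passed the threshold as lower in the tested group (adjusted p of 0.333 and 0.0844 from edgeR). Without tested cow 3, bta-miR-451 passed as higher, at 1.06. The liver miRNAs summed to 1068 to 1590 CPM and 1130 to 2024 CPM, and those of epithelium to 77918 to 93340 CPM and 90386 to 97481 CPM. The part of these sources in the levels of the cluster was not tested.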

How the data were processed

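The authors trimmed and filtered small RNA reads (cutadapt 1.14 and Bowtie are named in the submitters' processing notes), matched them to the bovine genome (ARS-UCD1.2), removed other RNA classes, named known miRNAs from miRBase and predicted further ones with miRDeep2. They deposited raw counts per miRNA and library. The counting tool is not given in the sources used here. They also deposited a table labelled TPM that holds RPM values, counts over clean reads scaled to 1000000, and that also has their base means, fold changes and p-values, which were not used. The table of miRNAs they called was not used. No sample was left out, and no 2 libraries agreed within sampling noise (chi-square per degree of freedom at least 96.1).

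From the counts, R 4.3.3 with edgeR 4.0.16 (TMM, estimateDisp, glmQLFit, glmQLFTest) compared the groups over the 623 miRNAs with at least 10 counts over the 6 libraries, with Benjamini-Hochberg adjustment over all of them. The standard error is the fold change divided by the square root of F. Single values were compared with SciPy 1.17.1, by exact permutation tests. The libraries held 1277693 to 2176002 counts, so counting error is large for miRNAs with few counts. The fits were tested on simulated data. Alternatives were DESeq2 1.42.0, limma 3.58.1 on log2(CPM + 1), other factors, filters, totals and minimum counts, merged nested sequences, a replicate block and each cow left out. The members and lists were chosen with earlier results of these data known. Named miRNAs are the members, their seed relatives, the 3 known miRNAs most like each member, and miRNAs of the marker lists (vessel wall and platelet, muscle, red blood cell, white blood cell, liver, epithelium). Hairpin sequences were not used here.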

Additional observations from a re-analysis of the deposited data

How the results depend on the processing

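The share of the arms of miR-424 was planned and not run, since only 1 arm was analysed, and with filterByExpr no member was left to test. The count of miRNAs past the threshold was 20 of 623. It was 13 of 348 with filterByExpr, 12 of 623 with the replicate block and 26 of 623 with DESeq2. With 1 cow left out it ranged from 17 to 23. With known miRNAs only it was 6 of 312, where the main fit had passed 2 of the 312 as higher and 1 as lower. Of the 2 members tested 0 passed under any alternative that tested them. The log2 fold change of bta-miR-424-3p, close to 0, turned to -0.52 with limma on log2(CPM + 1) and to -1.02 with the replicate block, and ran from -1.42 to 0.66 with 1 cow left out. As a ratio of group means of its share it was 1.05, turned to 0.788 per clean reads, and ran from 0.350 (without tested cow 1) to 1.58 with 1 cow left out. The log2 fold change of bta-miR-450a was negative under every alternative run except without control cow 2, was -0.74 with limma and ran from -2.79 to 0.62 with 1 cow left out, and the ratio of means ran from 0.149 to 1.71. That of bta-miR-450b, whose sign was fixed by how it was picked, was 2.86 with limma and 3.49 to 5.55 with 1 cow left out, and the ratio of means was 22.8, from 14.4 to 61.4. The cause of these changes was not tested. Of 18 values for 3 members in 6 libraries, 16 had a count and 6 had at least 10 counts. Detection fell from 5 to 3 libraries for bta-miR-424-3p and from 6 to 1 for bta-miR-450a at 10 counts, and from 5 to 2 for bta-miR-450b at both 5 and 10 counts.

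Replicate numbers gave no sign of pairing the cows. The correlation of deviations from the group means between cows of the same number was -0.06, -0.05 and -0.02 for numbers 1, 2 and 3. These values cannot show whether cows of the same number shared a step of handling. With the replicate block the log2 fold change of bta-miR-450a was -0.66 and that of bta-miR-450b 4.48, and no call of a member changed. Counts below 10 leave wide counting intervals for 12 of the 18 values.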
